A study of Homo sapiens with 6 samples.

Results

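The genes described here are 10 direct readouts of the transcriptional coactivators YAP and TAZ: CCN1, CCN2, ANKRD1, AMOTL2, MYOF, AXL, CRIM1, NT5E, NUAK2 and FJX1. They were chosen by name as widely used YAP and TAZ targets, with earlier results of these data known. All 10 were found by symbol among the 60683 rows of the count table. RNA was sequenced from 143B cells, an established human osteosarcoma line. The tested libraries were 3 from 143B cells given TPBC-PEG for 24 h, and the controls were 3 from 143B cells given PBS for 24 h. The titles state a TPBC-PEG dose of 3 µM and the treatment protocol states 300 µM, so the dose is not settled. The design text also names photodynamic therapy, in which a compound forms reactive oxygen species under light, but no sample label says whether the sequenced cells were lit. The extraction protocol speaks of tissue, although every sample is labelled as the cell line. A single line was used and no label says that replicates were separate cultures, so the p-values reflect the variation among these libraries, which could be technical alone.

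YAP and TAZ do not bind DNA themselves. When the Hippo kinases are inactive, the coactivators enter the nucleus and act through the TEAD factors, which recognise a short DNA element. When the kinases LATS1 and LATS2 phosphorylate YAP and TAZ, these are held in the cytoplasm and the mRNA of their targets falls without any need for a change in the mRNA of YAP or TAZ. The series title names HIPPO signalling, so the comparison asks whether the target mRNAs differed between cells given TPBC-PEG and cells given PBS.

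The start regions of the targets were searched for the short element of the TEAD factors, though a match of letters does not show binding. Those of 4 members are printed here because they hold TEAD cores and range from the most changed target to 1 that was not called. Each line gives the 300 bases around an annotated start, 5′ to 3′ on the strand of the gene, from RefSeq on GRCh38.p14, and capitals mark the TEAD core GGAATG or its reverse complement CATTCC.
CCN2, minus strand, chr6:131951323-131951622: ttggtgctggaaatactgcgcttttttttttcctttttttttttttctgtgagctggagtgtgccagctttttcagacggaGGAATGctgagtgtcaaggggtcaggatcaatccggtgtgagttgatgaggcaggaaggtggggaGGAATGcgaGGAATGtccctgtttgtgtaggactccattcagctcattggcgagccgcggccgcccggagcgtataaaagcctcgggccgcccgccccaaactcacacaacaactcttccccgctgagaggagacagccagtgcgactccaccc
ANKRD1, minus strand, chr10:90921038-90921337: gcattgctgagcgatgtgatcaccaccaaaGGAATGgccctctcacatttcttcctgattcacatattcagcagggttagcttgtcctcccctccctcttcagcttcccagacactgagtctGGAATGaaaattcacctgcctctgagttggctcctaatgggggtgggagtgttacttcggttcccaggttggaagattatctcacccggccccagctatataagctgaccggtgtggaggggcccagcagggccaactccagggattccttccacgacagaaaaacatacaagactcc
AMOTL2, minus strand, chr3:134374398-134374697: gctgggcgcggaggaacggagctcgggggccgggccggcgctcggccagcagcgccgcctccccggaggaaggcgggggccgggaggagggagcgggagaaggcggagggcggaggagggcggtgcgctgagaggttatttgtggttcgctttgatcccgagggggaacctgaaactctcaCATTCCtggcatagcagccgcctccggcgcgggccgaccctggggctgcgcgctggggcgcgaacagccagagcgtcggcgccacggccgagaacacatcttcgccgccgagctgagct
NUAK2, minus strand, chr1:205321696-205321995: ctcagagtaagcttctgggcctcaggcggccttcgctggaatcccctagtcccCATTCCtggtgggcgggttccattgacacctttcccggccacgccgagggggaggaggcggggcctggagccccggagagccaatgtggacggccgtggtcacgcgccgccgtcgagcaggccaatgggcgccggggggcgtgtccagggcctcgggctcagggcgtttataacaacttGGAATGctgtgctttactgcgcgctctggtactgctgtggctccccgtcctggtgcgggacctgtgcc
The CCN2 window holds 3 cores, whose left ends lie 169, 104 and 95 bases before the start. ANKRD1 has 2, at 220 and 128 bases before the start, and NUAK2 has 2, at 197 and 18 bases before it. The AMOTL2 window, which belongs to the second of its listed starts, has 1, at 69 bases before the start, and the other AMOTL2 start has 0.

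Start regions were listed for 8 of the 10 members, but not for CCN1 and CRIM1. Of these 8 genes 5 had at least 1 TEAD core, AXL being the fifth, with 1 core at the second of its starts. Counted by start region, 5 of the 10 listed for these genes held a core. MYOF, NT5E and FJX1 had 0 in this window, which says only that these letters are not within it. Among all 35116 start regions of the same length, 14.0% held at least 1 core on either strand, 1.37% at least 2 and 0.128% at least 3. The AP-1 element TGANTCA, where N is any base, was in the window of 1 of these 8 members, ANKRD1, and in 7.71% of all start regions. In ANKRD1 it does not overlap the TEAD cores. The CArG box, to which SRF binds, was in the window of 0 of these 8 members and in 1.29% of all start regions. CCN1 and CRIM1 were not searched. Of the other genes of the 22-gene YAP and TAZ signature, 8 of 12 had a listed start region, and 4 of these held a TEAD core.

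The libraries held 15726323 to 20486584 counts, and edgeR tested the 15846 genes that passed a filter on low counts. Values are library-scaled counts (CPM) after TMM scaling, which adjusts library totals for differences in RNA composition. Of the genes tested 16.9% were lower and 16.2% higher with TPBC-PEG at an adjusted p under 0.05 (2682 lower and 2574 higher), a balance that changed to 1971 lower and 3213 higher when libraries were scaled by their totals alone. Of 7 mesenchymal or osteosarcoma markers 6 were above 1 CPM in both groups. The seventh, THY1, had 2, 8 and 0 counts with TPBC-PEG and 1, 0 and 0 with PBS. The summed level of the 7 was 3280 to 3403 CPM with TPBC-PEG and 3712 to 3757 CPM with PBS. Of the 6 tested 5 fell and 1, RUNX2, rose, and their part in the target results was not tested. EPCAM was the single epithelial marker of 4 above 1 CPM, CDH1 and KRT5 had at most 3 counts in any library and KRT14 had 0 counts in every library, and the epithelial sum was 16.2 to 17.7 CPM with TPBC-PEG and 15.3 to 17.7 CPM with PBS. Sums of the 4 blood and the 3 endothelial markers were at most 1.06 CPM in any library.

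Of the 10 targets 8 fell with TPBC-PEG, against 16.9% of all genes tested and 23.9% of the 10164 genes with a mean CPM within the range of the members (7.75 to 771 CPM). All 10 members passed the filter on low counts, and all 10 had a negative log2 fold change. The median log2 fold change of the members was -0.25, against 0.011 for all genes tested and -0.015 for genes in the same range of levels. NUAK2 alone sets the lower end of that wide range, so it is no close match in level for the more abundant members. After removal of the dependence of fold change on expression level 7 members were called lower. Their median over all members was then -0.26, against -0.0054 for all genes tested. None of the 10 members rose by edgeR, and 0 were higher at an unadjusted p under 0.05, by DESeq2 or by limma-voom. The lowest and highest libraries parted the groups completely for 8 members, where 21.4% of all genes had every TPBC-PEG value below every PBS value and 43.4% had groups apart in either direction. The falls were graded, from ANKRD1, whose mean CPM decreased by 41.7%, to CRIM1, whose mean CPM decreased by 9.33%.

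**Figure D1:**
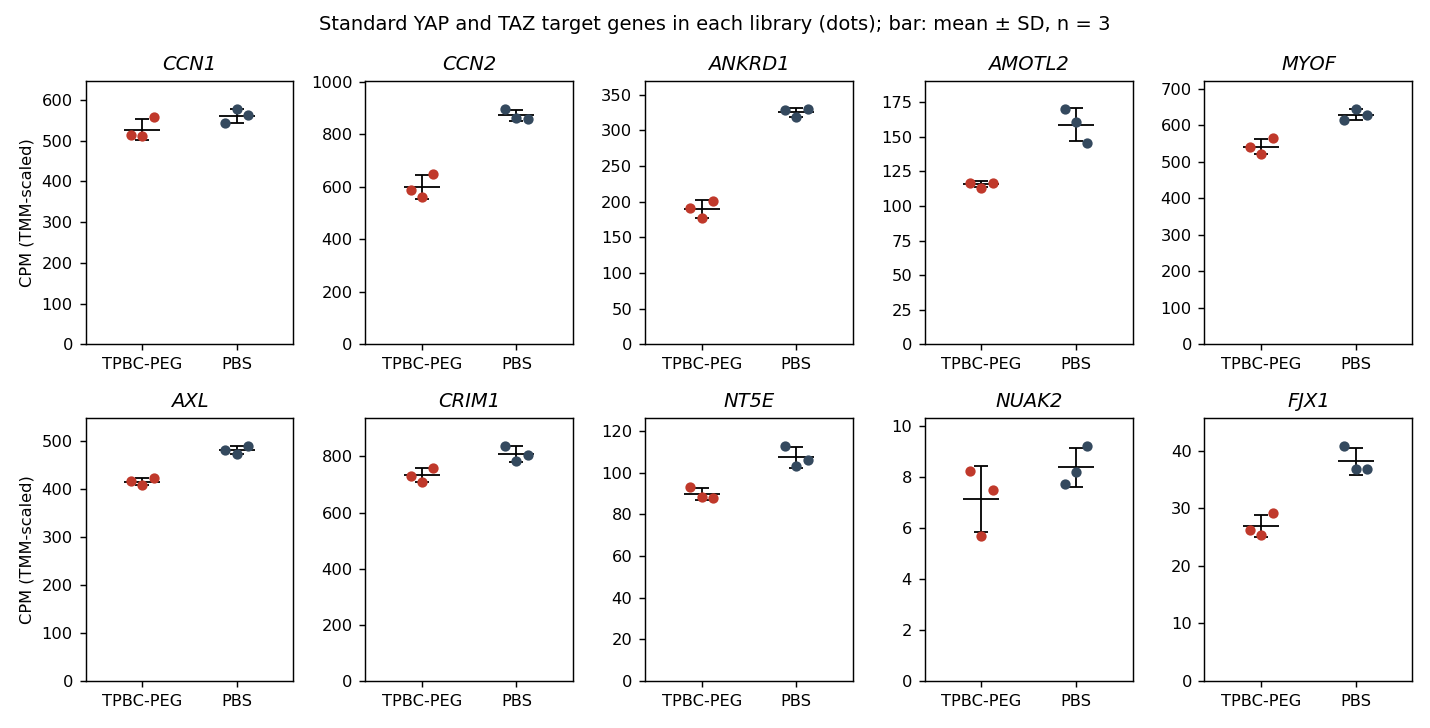
CPM (TMM-scaled, y axis from 0) of the 10 targets in each library, with TPBC-PEG at left and PBS at right in every panel; dots are libraries and bars the mean ± SD of 3. The groups part for 8 genes and overlap for CCN1 and NUAK2.

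The secreted matricellular proteins CCN1 and CCN2 are the best known YAP and TAZ targets, and their mRNAs differed in how far they moved. CCN2 (ENSG00000118523, chromosome 6, 131948176 to 131951373 in GRCh38), the connective tissue growth factor gene, stood at 587, 563 and 649 CPM with TPBC-PEG and at 895, 861 and 858 CPM with PBS. All 3 TPBC-PEG libraries lay below all 3 PBS libraries, and CCN2 fell by 0.54 ± 0.040 on the log2 scale (SE; edgeR adjusted p = 9.35e-14). CCN1 (ENSG00000142871, chromosome 1, 85580761 to 85583962) stood at 514, 511 and 558 CPM with TPBC-PEG and at 543, 578 and 565 CPM with PBS. The groups overlapped, because TPBC-PEG replicate 3 lay above PBS replicate 1. CCN1 missed the threshold, with a log2 fold change of -0.090 (95% interval -0.17 to -0.014, before adjustment; edgeR adjusted p = 0.0598). Without TPBC-PEG replicate 3 CCN1 was called at -0.13, and without PBS replicate 1 at -0.12, while after removal of the dependence of fold change on expression level it was at -0.00062 (edgeR adjusted p = 0.00933, 0.0209 and 0.993). An antisense gene overlaps 8.34% of the CCN2 exon length but held 1 to 14 counts per library, against at least 10344 for CCN2.

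The ratio of both CCN counts within a library does not depend on scaling between libraries. CCN2 counts were 1.14, 1.10 and 1.16 times the CCN1 counts with TPBC-PEG and 1.65, 1.49 and 1.52 times with PBS. The ratio was thus lower in each TPBC-PEG library than in each PBS library (mean 1.14 ± 0.031 and 1.55 ± 0.085, SD, n = 3), with an exact two-sided permutation p of 0.1, the smallest that 3 against 3 can give (0.15 adjusted over 9 ratios). CCN2 made up 18.4% ± 0.58 of the counts of the 10 targets with TPBC-PEG and 21.8% ± 0.33 with PBS, and CCN1 made up 16.2% ± 0.27 with TPBC-PEG and 14.1% ± 0.57 with PBS (SD, n = 3 each; exact permutation p = 0.1 for each).

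ANKRD1 (ENSG00000148677, chromosome 10, 90912096 to 90921276) encodes an ankyrin repeat protein of the nucleus and the sarcomere and moved the most of the 10. It stood at 191, 177 and 201 CPM with TPBC-PEG and at 328, 319 and 330 CPM with PBS, so that its highest TPBC-PEG library stayed far below its lowest PBS library. The log2 fold change was -0.78 ± 0.040 (SE; edgeR adjusted p = 3.82e-21). Among the 10164 genes with a mean CPM within the members' range, ANKRD1 had the 20th lowest log2 fold change, CCN2 the 85th, FJX1 the 112th and AMOTL2 the 165th. ANKRD1 was the single target called when the test was set against a 1.5-fold change instead of no change, a test that called 0.0884% of all genes lower. Relative to CCN1 in the same library, ANKRD1 counts were at 0.371, 0.347 and 0.361 with TPBC-PEG and at 0.605, 0.552 and 0.584 with PBS.

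AMOTL2 (ENSG00000114019, chromosome 3, 134355874 to 134375479), a scaffold of the angiomotin family that binds YAP and holds it outside the nucleus, is a target that also restrains its own inducers. It stood at 117, 113 and 117 CPM with TPBC-PEG and at 170, 161 and 146 CPM with PBS. The TPBC-PEG libraries lay close together and below the PBS libraries, which were spread more widely (SD 2.12 with TPBC-PEG and 12.2 with PBS, n = 3). The log2 fold change was -0.46 ± 0.045 (SE; edgeR adjusted p = 2.64e-11), and it ran from -0.52 to -0.42 when each library was left out in turn.

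Among the surface proteins, AXL (ENSG00000167601, chromosome 19, 41219203 to 41261766), a receptor tyrosine kinase for the ligand GAS6, stood at 415, 408 and 422 CPM with TPBC-PEG and at 480, 472 and 489 CPM with PBS. MYOF (ENSG00000138119, chromosome 10, 93306429 to 93482317), a ferlin of membrane repair and vesicle fusion, stood at 540, 522 and 565 CPM with TPBC-PEG and at 616, 645 and 628 CPM with PBS. Neither gene had overlapping groups, and the log2 fold changes were -0.21 ± 0.036 for AXL and -0.22 ± 0.037 for MYOF (SE; edgeR adjusted p = 5.34e-06 and 5.06e-06). After removal of the dependence on expression level they were -0.13 for AXL and -0.12 for MYOF, still called (edgeR adjusted p = 0.00342 and 0.00543).

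NT5E (ENSG00000135318, chromosome 6, 85449584 to 85495791), which encodes CD73, the surface enzyme that turns AMP into adenosine, stood at 93.4, 88.5 and 87.7 CPM with TPBC-PEG and at 113, 103 and 106 CPM with PBS. CRIM1 (ENSG00000150938, chromosome 2, 36355926 to 36551135), a transmembrane protein that binds bone morphogenetic proteins, stood at 732, 709 and 759 CPM with TPBC-PEG and at 837, 782 and 806 CPM with PBS. In both genes the TPBC-PEG libraries lay below the PBS libraries, in CRIM1 by a narrow gap. NT5E had a log2 fold change of -0.26 ± 0.047 and CRIM1 of -0.14 ± 0.037 (SE; edgeR adjusted p = 1.65e-05 and 0.00196). The CRIM1 call was lost with the trend on expression level removed, where its log2 fold change was -0.040 (edgeR adjusted p = 0.419). Relative to CCN1 within a library, neither CRIM1 nor NT5E parted the groups (exact permutation p = 0.6 and 0.2, n = 3 each).

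The kinase genes FJX1 and NUAK2 are the least abundant of the 10. FJX1 (ENSG00000179431, chromosome 11, 35618419 to 35620868) is the human relative of a Drosophila Golgi kinase that modifies the Fat and Dachsous cadherins, which signal to the Hippo pathway in the fly. It stood at 26.2, 25.5 and 29.2 CPM with TPBC-PEG and at 40.9, 36.9 and 36.8 CPM with PBS, with no overlap and a log2 fold change of -0.51 ± 0.071 (SE; edgeR adjusted p = 9.20e-08). NUAK2 (ENSG00000163545, chromosome 1, 205302059 to 205321791), an AMPK-related kinase that feeds back on YAP through LATS kinases and actomyosin, had 160, 118 and 119 counts with TPBC-PEG and 148, 148 and 146 with PBS. That is 8.22, 5.69 and 7.46 CPM with TPBC-PEG and 7.72, 8.20 and 9.21 CPM with PBS, and the groups overlapped. The log2 fold change of NUAK2 was -0.23 with a 95% interval of -0.51 to 0.040 (edgeR adjusted p = 0.193), and the gene was called under 0 of 18 alternatives. Without TPBC-PEG replicate 2, its lowest library, NUAK2 was at -0.087 (edgeR adjusted p = 0.721).

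**Figure D2:**
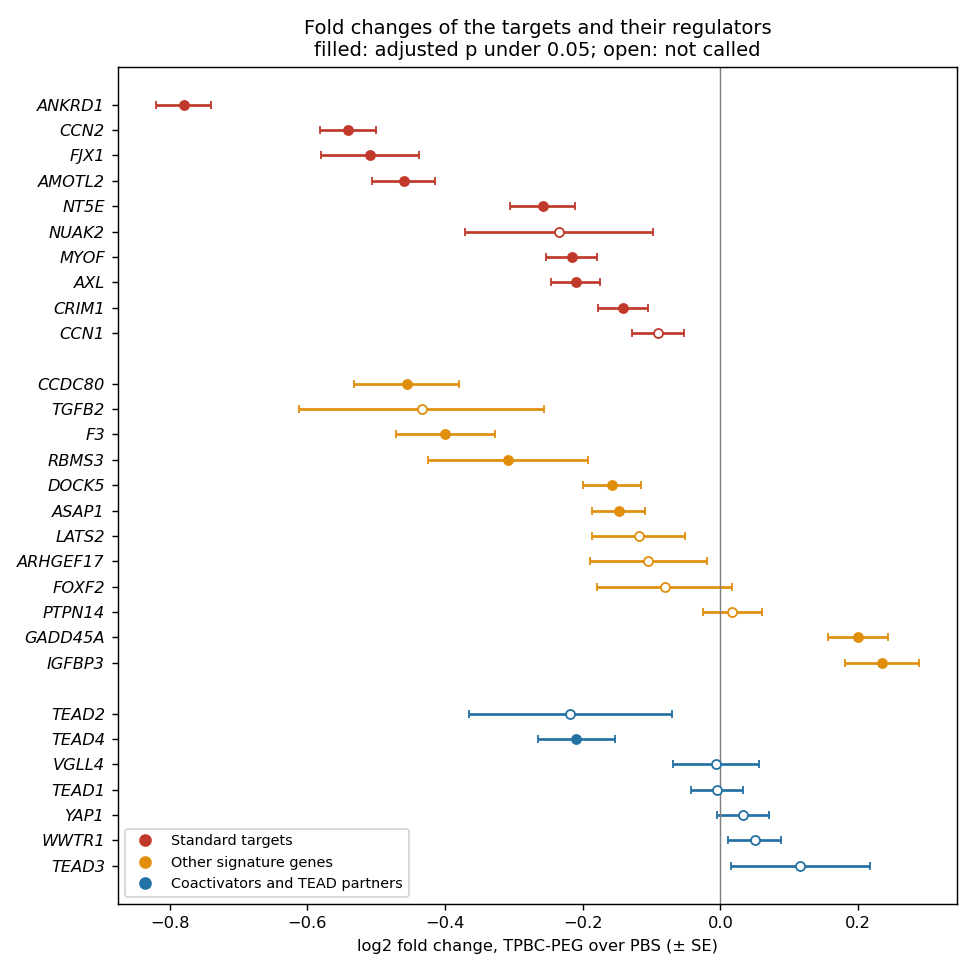
Log2 fold change of TPBC-PEG over PBS (x axis, ± SE) for the 10 standard targets, the 12 other signature genes and 7 coactivator and TEAD genes, 1 gene per row; filled circles have an adjusted p under 0.05. The targets run from -0.78 for ANKRD1 to -0.090 for CCN1, while YAP1, WWTR1 and TEAD1 sit near 0.

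The 10 targets together took 0.327%, 0.316% and 0.344% of the counts with TPBC-PEG and 0.398%, 0.393% and 0.386% with PBS (exact permutation p = 0.1, the smallest possible, n = 3 each). Among the TPBC-PEG libraries replicate 2 was the lowest for 9 of the 10 members and replicate 3 the highest for 8. The PBS libraries had no such order, the lowest falling to replicate 1 for 3 members, replicate 2 for 4 and replicate 3 for 3. The share of all genes with the order of the TPBC-PEG libraries was not computed, so it is not shown to be particular to the targets. Outside them ACTB had it (2167, 2107 and 2460 CPM) and YAP1 did not (312, 306 and 305 CPM). Set beside the start regions, 4 of the 5 genes with a TEAD core in the window fell (CCN2, ANKRD1, AMOTL2 and AXL, but not NUAK2), and all 3 without a core there fell too (MYOF, NT5E and FJX1), a description with no test. In bulk RNA a lower mRNA level in each cell and a smaller share of cells that express the gene cannot be told apart.

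**Figure D3:**
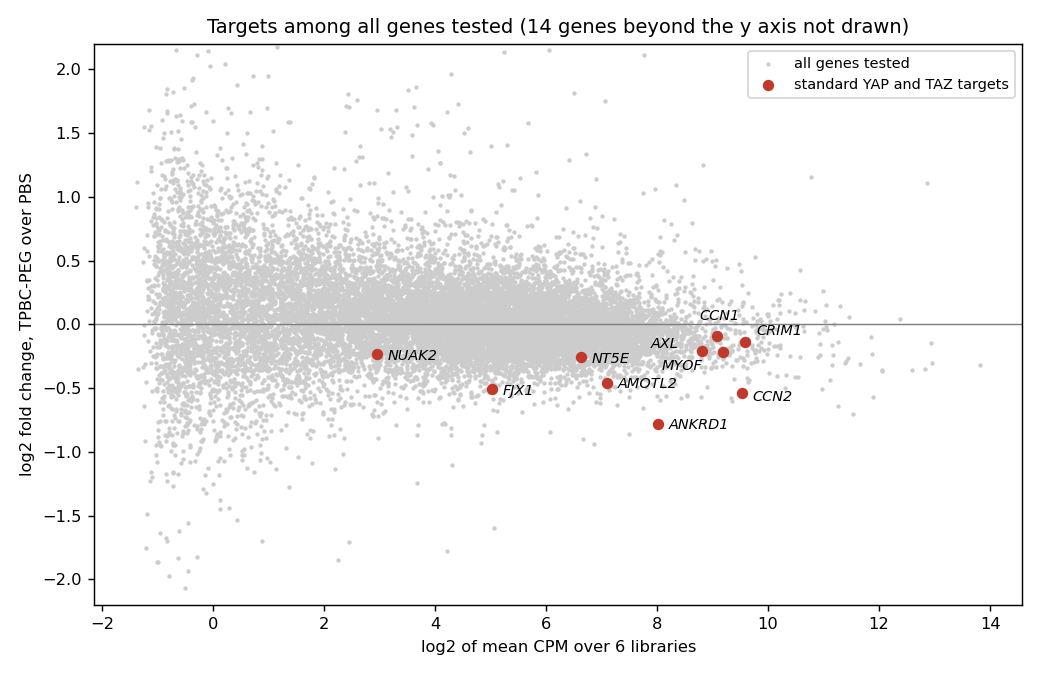
Log2 of the mean CPM over 6 libraries (x axis) against the log2 fold change of TPBC-PEG over PBS (y axis) for every gene tested, in grey, with the 10 targets in red; 14 genes beyond ±2.2 are not drawn. ANKRD1, CCN2, AMOTL2 and FJX1 lie along the lower edge of the genes at their level, and CCN1 and CRIM1 within the bulk.

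Levels of different genes were compared per kilobase of exon. With TPBC-PEG the order was CCN2 at 256 ± 19.0, CCN1 at 215 ± 10.8, CRIM1 at 103 ± 3.49, ANKRD1 at 95.9 ± 6.16, AXL at 80.5 ± 1.40 and MYOF at 64.0 ± 2.53 CPM per kilobase (SD, n = 3). NT5E followed at 19.8 ± 0.67, AMOTL2 at 19.3 ± 0.35, FJX1 at 10.4 to 11.9 over its libraries and NUAK2 at 2.07 ± 0.38 CPM per kilobase. With PBS the order was CCN2 at 373 ± 8.81, CCN1 at 229 ± 7.22, ANKRD1 at 164 ± 3.00, CRIM1 at 114 ± 3.87, AXL at 93.2 ± 1.71, MYOF at 74.3 ± 1.68, AMOTL2 at 26.6 ± 2.04, NT5E at 23.7 ± 1.11, FJX1 at 15.6 ± 0.95 and NUAK2 at 2.43 ± 0.22 CPM per kilobase. ANKRD1 thus stood below CRIM1 with TPBC-PEG and above it with PBS, though with TPBC-PEG the libraries of CRIM1 and ANKRD1 overlapped in level. NT5E and AMOTL2 also overlapped, in both groups, and all other neighbours in the order were apart. By level per kilobase NUAK2 was at the 37.1 percentile of genes tested, FJX1 at 78.1 and the other targets higher.

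The mRNAs of the coactivators did not pass the test. YAP1 was at 308 ± 3.51 CPM with TPBC-PEG and 301 ± 12.3 CPM with PBS, and WWTR1, which encodes TAZ, at 215 ± 3.87 CPM with TPBC-PEG and 208 ± 7.67 CPM with PBS (SD, n = 3). Both passed as higher, at 0.11 each, once the trend on expression level was removed (edgeR adjusted p = 0.0165 and 0.0179). Of the 7 coactivator and TEAD genes 1 fell, TEAD4, at 53.0 ± 2.46 CPM with TPBC-PEG and 61.2 ± 1.36 CPM with PBS (log2 fold change -0.21 ± 0.055 SE, edgeR adjusted p = 0.00239). None of the 7 rose in the test as set, at an unadjusted p under 0.05, by DESeq2 or by limma-voom. Of all genes tested 16.9% fell and 16.2% rose. TEAD1 was at -0.0049 ± 0.037, TEAD2 at -0.22 ± 0.15, TEAD3 at 0.12 ± 0.10 and the TEAD cofactor VGLL4 at -0.0061 ± 0.063 (log2 fold change ± SE). TEAD3 was called higher without PBS replicate 2 (0.28, edgeR adjusted p = 0.0329).

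Set against YAP1 within each library, a ratio free of scaling, all 10 targets were lower with TPBC-PEG. Of the 10 ratios 8 parted the groups, with the same exceptions as by CPM, CCN1 and NUAK2. YAP1 itself had a log2 fold change of 0.032, so these ratios largely restate the CPM differences. CCN2 counts were 1.88, 1.84 and 2.13 times the YAP1 counts with TPBC-PEG and 2.88, 3.00 and 2.82 times with PBS. ANKRD1 counts were 0.612, 0.578 and 0.660 times the YAP1 counts with TPBC-PEG and 1.05, 1.11 and 1.08 times with PBS. The log2 differences of the 10 ratios ran from -0.81 for ANKRD1 to -0.12 for CCN1, and each of the 8 had an exact permutation p of 0.1 (0.125 adjusted over 10 ratios). Against CCN1, 6 of the 9 ratios parted the groups: CCN2, ANKRD1, AMOTL2, MYOF, AXL and FJX1. The share of all genes that part the groups by such ratios was not computed. By CPM 43.4% of all genes tested did, in either direction.

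**Figure D4:**
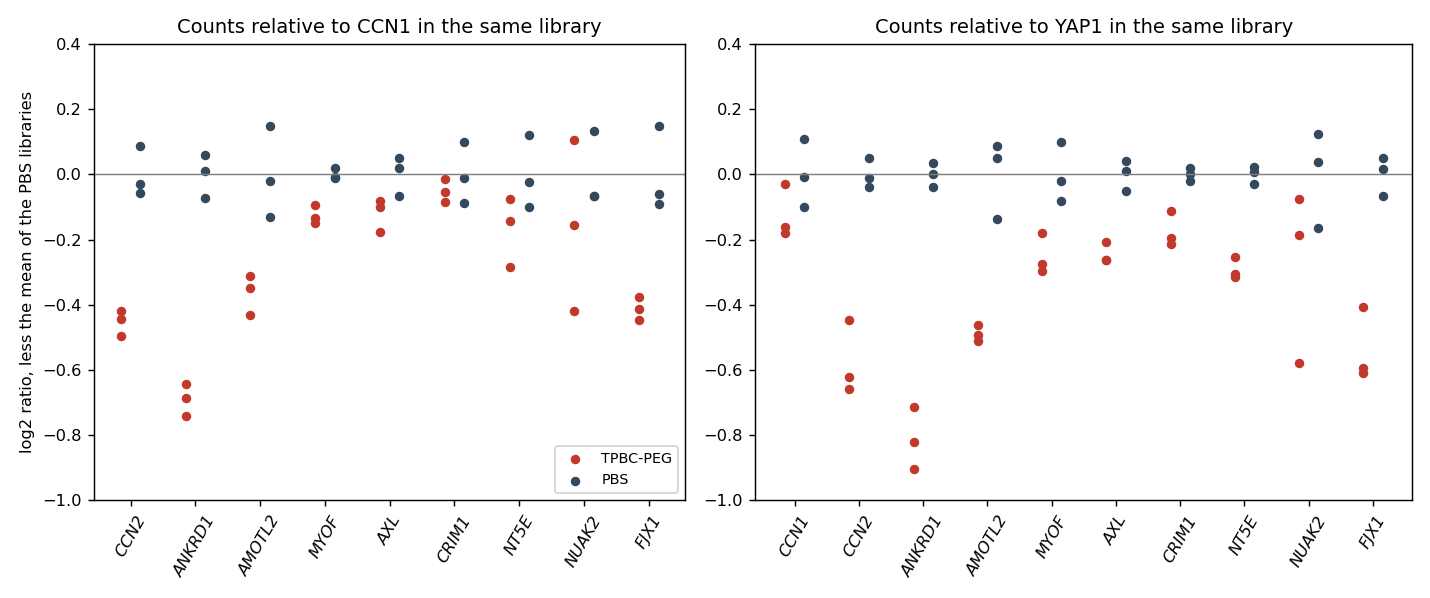
Log2 ratio of each target's counts to those of CCN1 (left panel) and YAP1 (right panel) in the same library, less the mean of the PBS libraries; dots are libraries, with TPBC-PEG left of PBS for each gene. Relative to YAP1 all genes but CCN1 and NUAK2 part the groups, and ANKRD1 lies lowest in both panels.

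The other 12 genes of the 22-gene signature moved less evenly. The division of the signature into members and these 12 was made with earlier results of these data known. All 12 were tested. Of these 5 fell and 2 rose (4 and 2 by DESeq2 and by limma-voom), and their median was -0.13 on the log2 scale. Of all genes tested 16.9% fell and 16.2% rose. CCDC80, a matrix protein gene, had 394, 415 and 336 counts with TPBC-PEG and 556, 486 and 445 with PBS, and F3, which encodes tissue factor, stood at 23.8 ± 0.77 CPM with TPBC-PEG and 31.4 ± 0.34 CPM with PBS (SD, n = 3), with log2 fold changes of -0.46 and -0.40. DOCK5 and ASAP1, regulators of small GTPases, fell by 0.16 and 0.15. ASAP1 was not called with the trend on expression level removed (-0.081, edgeR adjusted p = 0.0964). RBMS3, an RNA-binding protein gene, was at -0.31 with overlapping groups, and its call was lost under 7 alternatives, among them leaving out TPBC-PEG replicate 1 or 3 or PBS replicate 1 or 2 (edgeR adjusted p = 0.177, 0.0648, 0.116 and 0.182).

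The signature genes that rose were IGFBP3, an insulin-like growth factor binding protein, by 0.23 ± 0.054, and GADD45A, a growth arrest and DNA damage gene, by 0.20 ± 0.044 (log2 fold change ± SE; edgeR adjusted p = 0.000543 and 0.000252). IGFBP3 stood at 72.3 ± 4.52 CPM with TPBC-PEG and 61.6 ± 2.87 CPM with PBS. LATS2, the Hippo kinase that is itself induced by YAP, was at -0.12 ± 0.067 and did not pass (edgeR adjusted p = 0.181), nor did PTPN14, a phosphatase that restrains YAP, at 0.017 ± 0.042. FOXF2, ARHGEF17 and TGFB2 had log2 fold changes of -0.081, -0.11 and -0.43 and did not pass. TGFB2, with 62 to 107 counts with TPBC-PEG and 83 to 114 with PBS, was called lower under 5 alternatives, at -0.44 with the replicate block (edgeR adjusted p = 0.0329), and at -0.66 without TPBC-PEG replicate 2 and -0.60 without PBS replicate 1 (edgeR adjusted p = 0.0113 and 0.0120).

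A further 15 genes that other studies have named as targets held 7 that fell and 5 that rose, their median being -0.12 on the log2 scale. Of all genes tested 16.9% fell and 16.2% rose. EDN1, which encodes endothelin-1, stood at 21.6 ± 2.47 CPM with TPBC-PEG and 37.2 ± 0.52 CPM with PBS, and THBS1, thrombospondin-1, at 231 ± 13.5 CPM with TPBC-PEG and 340 ± 12.4 CPM with PBS (SD, n = 3). Their log2 fold changes were -0.79 ± 0.075 and -0.56 ± 0.040 (SE; edgeR adjusted p = 4.79e-12 and 8.02e-16). The largest rises were those of AREG, the epidermal growth factor receptor ligand amphiregulin, at 2.55 ± 0.43 CPM with TPBC-PEG and 1.18 ± 0.47 CPM with PBS, and of FGF2, basic fibroblast growth factor, at 72.1 ± 2.52 CPM with TPBC-PEG and 56.6 ± 2.45 CPM with PBS. Their log2 fold changes were 1.08 ± 0.28 and 0.35 ± 0.053 (SE; edgeR adjusted p = 0.00177 and 6.86e-07). AREG rested on 40 to 59 counts with TPBC-PEG and 14 to 33 with PBS.

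Several targets, CCN1 and CCN2 among them, are also induced by SRF with its actin-sensing cofactors, so genes of that kind were read beside them. Of 11 tested SRF target genes 9 fell and 0 rose, also 0 at an unadjusted p under 0.05, by DESeq2 and by limma-voom, and the median was -0.61 on the log2 scale. Of all genes tested 16.9% fell and 16.2% rose. TAGLN, transgelin, stood at 20.5 ± 2.71 CPM with TPBC-PEG and 37.2 ± 2.26 CPM with PBS, and CALD1, caldesmon, at 129 ± 8.16 CPM with TPBC-PEG and 233 ± 12.9 CPM with PBS (SD, n = 3), with log2 fold changes of -0.87 ± 0.080 and -0.86 ± 0.044 (SE). CNN1 was not tested, with 1 or 2 counts in each TPBC-PEG library and 2 or 3 in each PBS library. The part of these genes' regulators in the target results was not tested.

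The targets were also compared with their closest relatives by family. AXL has the sister receptors TYRO3 and MERTK, chosen for mention after their values were seen. TYRO3 was at 44.5 ± 2.36 CPM with TPBC-PEG and 52.0 ± 1.51 CPM with PBS, and MERTK at 27.5 ± 1.78 CPM with TPBC-PEG and 19.9 ± 0.32 CPM with PBS (SD, n = 3), so that TYRO3 fell by 0.23 and MERTK rose by 0.46 on the log2 scale (edgeR adjusted p = 0.00199 and 5.17e-06). AXL counts were 15.4, 15.7 and 14.4 times the MERTK counts with TPBC-PEG and 24.5, 23.7 and 24.2 times with PBS, and 9.93, 9.04 and 9.10 times the TYRO3 counts with TPBC-PEG and 9.22, 8.82 and 9.70 times with PBS. The first of these ratios parted the groups (exact permutation p = 0.1) and the second did not (p = 0.7, exact), each of 9 pairs tested in all, with adjusted values of 0.15 and 0.788.

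Among the other families, the ferlin DYSF rose by 1.02 ± 0.31 and the CCN family gene CCN3 by 0.70 ± 0.22 (log2 fold change ± SE; edgeR adjusted p = 0.00892 and 0.00865), both at low levels. DYSF stood at 1.89 ± 0.43 CPM with TPBC-PEG and 0.912 ± 0.21 CPM with PBS, and CCN3 at 3.39 ± 0.38 CPM with TPBC-PEG and 2.08 ± 0.25 CPM with PBS (SD, n = 3). The DYSF call was lost without TPBC-PEG replicate 3 (0.83, edgeR adjusted p = 0.0749). AMOTL2 counts were 0.951, 0.949 and 0.959 times the AMOTL1 counts with TPBC-PEG and 1.32, 1.253 and 1.10 times with PBS, and the ratio to AMOT parted the groups as well (exact permutation p = 0.1 for each, 0.15 adjusted). The NUAK2 to NUAK1 and ANKRD1 to ANKRD23 ratios overlapped between groups (exact permutation p = 0.3 and 0.9), the second resting on 7 to 20 ANKRD23 counts per library. NUAK1 itself was called lower, with a log2 fold change of -0.36 (edgeR adjusted p = 3.77e-05), while NUAK2 was not called. ANKRD23 was not called at -0.56 (edgeR adjusted p = 0.325).

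Across the 20 relatives, ligands and pathway partners of the targets, 14 were tested, 5 fell and 4 rose (4 and 4 by DESeq2 and by limma-voom). Of all genes tested 16.9% fell and 16.2% rose. The relatives and partners of the largest change that fell were PROS1, a ligand of the AXL family of receptors, at -0.38 ± 0.088, and the atypical cadherin FAT1 at -0.37 ± 0.044 (log2 fold change ± SE; edgeR adjusted p = 0.000465 and 1.79e-08). FAT1 stood at 176 ± 12.8 CPM with TPBC-PEG and 226 ± 10.6 CPM with PBS. CCN4 and CCN6 had 0 counts in every library and CCN5 had 0 with TPBC-PEG and 4 counts in a single PBS library.

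**Figure D5:**
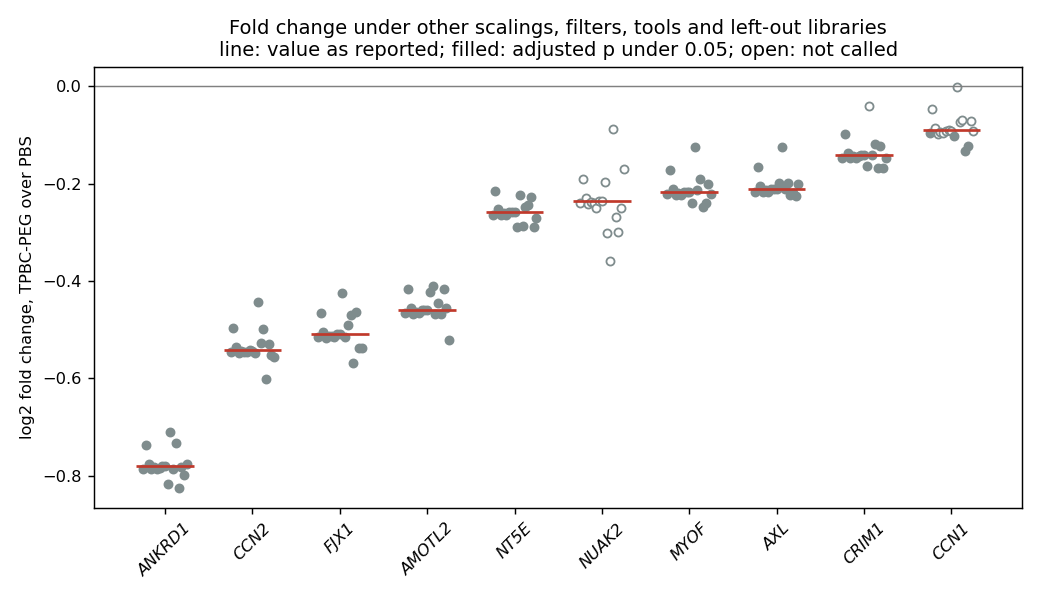
Log2 fold change of TPBC-PEG over PBS (y axis) for each target under 17 other scalings, filters, tools, corrections and left-out libraries (circles; filled where the adjusted p is under 0.05), with the value as reported as a line. ANKRD1, CCN2, FJX1, AMOTL2, NT5E, MYOF and AXL are filled throughout, and NUAK2 is open throughout.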

How the data were processed

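The deposited file is 1 table of raw read counts per Ensembl gene, as the authors left them, with a column for each of 6 libraries. HISAT2 and the build GRCh38 are named, per the submitters' processing notes. For the counting program, annotation release and strand setting the entry is: not given in the sources used here. Groups and replicate numbers come from the titles. Of 60683 rows 42013 had a symbol. Positions, exon lengths, overlaps and GC content came from GENCODE 29 and start regions from RefSeq.

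Deposited counts were analysed with edgeR 4.0.16 in R 4.3.3: filterByExpr (minimum count 10, minimum total 15), TMM scaling, robust glmQLFit, glmQLFTest for the effect of TPBC-PEG over PBS with no covariate, and Benjamini-Hochberg adjustment over 15846 genes. Adjusted p-values named edgeR come from this test, or from the same test under the alternative named. SE was taken from the F statistic. Single values used the two-sided exact permutation test over libraries. Intervals rest on the spread between libraries. No pair of replicates matched within sampling noise, the chi-square statistic being 2.26 to 4.26 times its degrees of freedom.

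On simulated data of 15443 genes with known changes in 50 genes per fold size, modelled on TPBC-PEG against PBS, the test recovered 74% of 1.25-fold, 92% of 1.5-fold, 100% of 2-fold and 98% of 4-fold changes, and 12 of 194 calls were false. Changes were placed only in genes with over 50 expected counts. The changed genes were far fewer than the 5256 called in the real data, so these rates need not hold there. The members and lists were chosen with earlier results of these data known. All members and all 12 other signature genes were named. The 7 coactivator and TEAD genes were named too, and the targets' sister receptors TYRO3 and MERTK were added after their values were seen. The log2 fold changes of NUAK1 and ANKRD23 were added in the same way. From the remaining lists the rule took at most 2 called genes in each direction, taking the most changed ones with a mean of 1 CPM or more. Alternatives were other scalings (DESeq2 size factors, library size, upper quartile), filters and tools (DESeq2 1.42.0, limma-voom 3.58.1), non-robust estimation, lowess offsets (span 0.3) for GC content or expression level, a replicate block, a 1.5-fold null and leaving out each library.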

Additional observations from a re-analysis of the deposited data

How the results depend on the processing

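The count of targets that fell was 7 to 9 under every alternative but the test against a 1.5-fold change, and all 10 log2 fold changes were negative under each of the 18 alternatives. Leaving out each library gave 8 or 9. Against a 1.5-fold change, 1 target, 0 of the other signature genes lower and 0 higher, and 14 genes lower and 131 higher of all were called. There the unchanged estimates of CCN2 (-0.54), AMOTL2 (-0.46), MYOF (-0.22), AXL (-0.21), CRIM1 (-0.14), NT5E (-0.26) and FJX1 (-0.51) no longer passed. That test asks for a larger change by construction. CCN1 was called with DESeq2 size factors (-0.096) and with the GC trend removed (-0.10), and ran from -0.13 to -0.068 over the left-out libraries. CRIM1 was not called with the expression-level trend removed (-0.040). The cause of these shifts was not tested. Libraries with the same replicate number did not deviate together (correlations of deviations 0.0034, 0.065 and -0.015 over 15846 genes), so the numbers were not taken as pairs. With the replicate block 8 targets were called lower and 0 higher, 6 and 2 of the other signature genes, and 2644 and 2531 of all genes. The ratios of targets to CCN1 kept their sign without each library, though 2 came close to no difference. CRIM1 was at -0.00041 without PBS replicate 1 and NUAK2 at -0.025 without TPBC-PEG replicate 2. With YAP1 as denominator the signs could not change, since every target had a negative log2 fold change and YAP1 a positive one (0.032). That denominator is therefore no check of the sign. NUAK2 had the fewest counts of the targets, 118 to 160 per library, and a standard error of 0.14 on the log2 scale, against 0.036 to 0.071 for the others; the part of depth in its missing call was not tested.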

Other observations

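The tested protein-coding genes nearest to each target on its chromosome were read beside the targets. Their distances ran from 0.73 kb to 2757 kb, so several are not close. Of the 20 neighbours, on either side of the 10 targets, 6 fell and 2 rose. Of all genes tested 16.9% fell and 16.2% rose, and a link between neighbours and targets was not tested. CCN1 has DDAH1, which encodes an enzyme that breaks down methylated arginine, 2.4 kb away. DDAH1 stood at 132 ± 6.14 CPM with TPBC-PEG and 154 ± 7.54 CPM with PBS (SD, n = 3; log2 fold change -0.23 ± 0.043 SE, edgeR adjusted p = 3.90e-05). It was thus called lower while CCN1 was not, although the difference between them was not tested. HNRNPUL1, 0.73 kb from AXL, was at -0.22 ± 0.038, close to AXL itself, and RPP30, 3.54 kb from ANKRD1, at -0.22 ± 0.056 against -0.78 for ANKRD1. Both neighbours of NT5E rose, while NT5E fell. TBX18, 685 kb away, rose by 0.29 and SNX14, 9.7 kb away, by 0.22 on the log2 scale (edgeR adjusted p = 0.00201 and 0.00402).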
